A study of Mus musculus with 6 samples.

Results

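The genes described here are 7 lysosomal proteases (Ctsa, Ctsb, Ctsd, Ctsh, Ctss, Ctsz and Lgmn), the thiol reductase Ifi30, also called GILT, and the lysosome membrane proteins Lamp1 and Lamp2. They were taken by name from the deposited table, where these 10 genes hold 13 of 25017 entries, out of 20458 gene names. RNA sequencing was carried out on follicular B cells that had been purified by flow cytometry as B220+, AA4.1-, CD23+ and CD21lo, in 3 samples from mice of genotype CD23Cre+Myh9wt/fl and 3 from mice of genotype CD23Cre+Myh9fl/fl, all of strain C57BL/6. All mice carried Cre under the CD23 promoter, which acts from the transitional stage of B cell maturation onward, so the wt/fl cells still had 1 intact Myh9 allele and were myosin IIa-haploinsufficient rather than normal, and no sample of Cre-negative or wild-type mice is used here. The study's methods give age ranges in weeks for mice used ex vivo and in vitro, without saying which covers the sequenced mice. The authors give 1 FPKM value (fragment counts divided by transcript length and by the total of mapped fragments) per entry and genotype, pooled over the 3 samples, with 1 entry for each coding sequence of a gene. No value per mouse was used, so no spread, no standard deviation and no test between genotypes can be given for any gene below, and read depth is unknown. Myh9, the deleted gene, was at 50.6 FPKM in wt/fl cells and 21.1 FPKM in fl/fl cells, or 41.7% of the wt/fl level. The LoxP sites flank exon 3 of Myh9, and the FPKM value is not limited to that exon, so it does not measure intact transcript alone.

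Antigen that a B cell takes up through its receptor is carried to late endosomes and lysosomes, where it is unfolded and cut into peptides for MHC class II. Acid proteases do the cutting, GILT opens disulfide bonds, and cathepsin S also removes the invariant chain (Cd74) that blocks the class II groove until peptide is loaded. LAMP-1 and LAMP-2 are heavily glycosylated proteins that line the lysosomal membrane and shield it from these enzymes. Among other questions, the study asked how loss of myosin IIa alters uptake, processing and presentation of antigen by B cells. It reported lower uptake of membrane-bound antigen by cells without myosin IIa, and it concluded that they took up, processed and presented soluble antigen normally. The values here give the pooled level of the transcripts of this machinery in the sorted cells of each genotype. They cannot test whether the genotypes differed.

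Lysosomal genes are known targets of TFEB and TFE3, which bind a sequence called the CLEAR element, built around the E-box CACGTG. RefSeq promoter windows on build GRCm38.p6, from 250 bases before to 50 bases after a start site, were found for 8 of the 10 genes, in 10 windows, and not for Ctsb and Ctsh. The E-box, which reads the same on both strands, was present for 5 of these 8 genes (Ctsa, Ctsd, Ifi30, Lamp1 and Lgmn), against 8.09% of all 27025 genes with a window and 12.6% of the 7509 of them that reached a mean of 1 FPKM here. Of 72 other lysosome genes with a window, 20 held the E-box, or 27.8%. The longer core TCACGTGA, which contains the E-box, was present for 3 of the 8 genes (Ctsa, Ctsd and Ifi30), against 1.12% of all genes, 2.46% of the 7509 compared genes with a window and 13.9% of the 72 other lysosome genes. These are letter matches and were not tested for binding. Lysosomal genes are known targets through this sequence and the 10 genes were chosen as lysosomal, so these shares are not independent of that choice. The stretches below show matches that lie before the start site (all but 1, the more distant match of Ctsd). They are written 5′ to 3′ on the strand of the gene with the E-box in capitals.
Lamp1: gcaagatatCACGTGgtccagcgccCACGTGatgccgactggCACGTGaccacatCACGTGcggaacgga
Ctsa: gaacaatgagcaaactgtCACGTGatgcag
Ctsd: cctcgcccgcgtctCACGTGacccgttgag
Lgmn: atggaatgtctgtCACGTGgtccattttat
Ifi30: tgatccaaaaacttCACGTGaccagacatg

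The Lamp1 stretch (GRCm38.p6, plus strand, chr8:13159091-13159160) covers the last 70 bases before the start site and holds 4 E-boxes, whose first bases lie 61, 45, 28 and 15 bases before it. In Ctsa (plus strand, chr2:164833743-164833772) the E-box starts 12 bases before the start site of the second of its 2 windows, and another starts 5 bases after it. In Ctsd (minus strand, chr7:142387910-142387939) the distance is 98 bases, with another E-box 245 bases before the start site. In Lgmn (minus strand, chr12:102439125-102439154) the distance is 49 bases, and in Ifi30 (minus strand, chr8:70766844-70766873) it is 196 bases. The windows of Ctss, Ctsz and Lamp2 did not hold these letters.

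**Figure D1:**
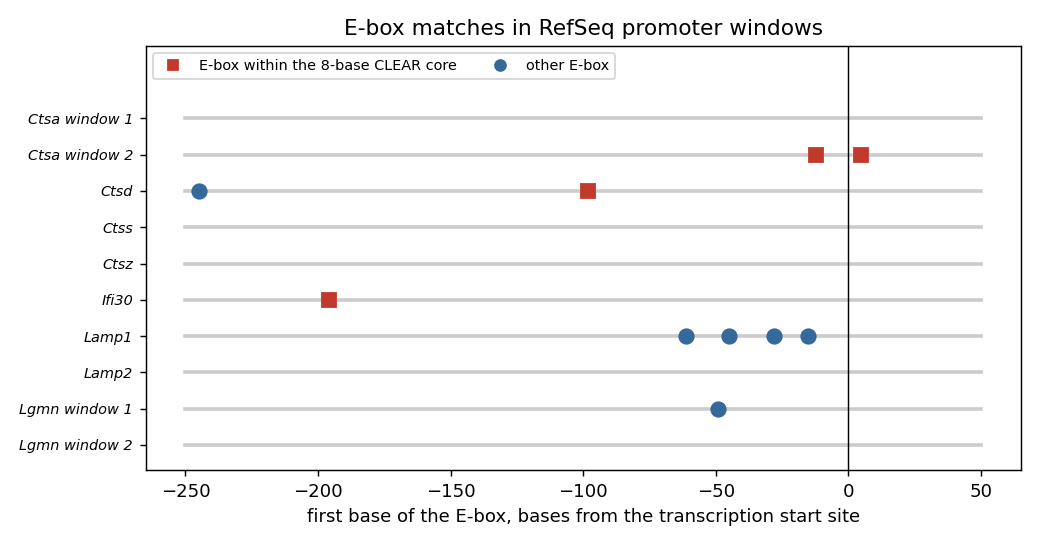
E-box matches in the promoter windows of the 8 genes found in RefSeq. The x axis is the distance in bases of the first base of the match from the start site, each grey line is a window, squares are E-boxes within the 8-base CLEAR core and circles are other E-boxes. Lamp1 shows 4 matches within 61 bases of the start site, and the windows of Ctss, Ctsz and Lamp2 show none.

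In wt/fl cells the levels of the 10 genes ran from 18.3 FPKM (Ctsb) to 530 FPKM (Ctss). FPKM is scaled to transcript length, so levels can be set roughly side by side between genes. The RNA was amplified before sequencing, and how far this shifted the levels of single genes is unknown here. From high to low the order in wt/fl was Ctss, Ifi30, Ctsh, Ctsz, Lamp1, Ctsa, Lgmn, Lamp2, Ctsd and Ctsb, and in fl/fl only Lgmn and Lamp2 changed places. Lgmn, Lamp2 and Ctsd lay close together, between 31.3 and 36.9 FPKM over both genotypes, and without values per mouse it cannot be said whether these neighbours differ beyond their spread. Of the 9879 genes that averaged 1 FPKM or more over both genotypes, called compared genes here, 98.7% lay below Ctss, 98.1% below Ifi30 and 97.1% below Ctsh, but only 57.7% below Ctsb.

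**Figure D2:**
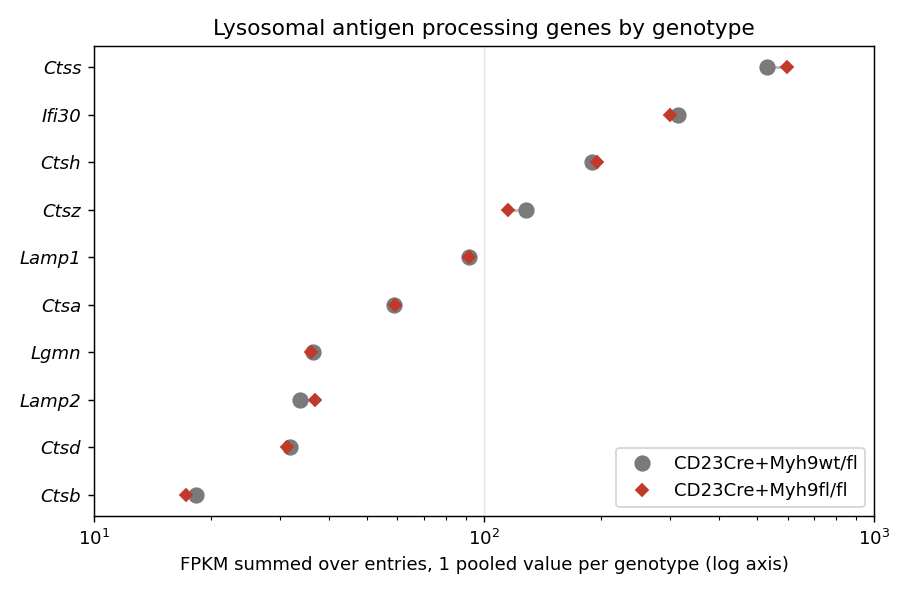
Levels of the 10 genes in wt/fl (grey circles) and fl/fl (red diamonds) follicular B cells. The x axis is FPKM on a log axis, summed over the entries of a gene, with 1 pooled value per genotype and therefore no error bars. The markers of both genotypes overlap or nearly overlap in every row, and Ctss is highest at 530 and 597 FPKM.

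None of the 10 genes differed between genotypes by a log2 ratio of 0.5 or more. All log2 ratios compare fl/fl with wt/fl after adding 1 FPKM to each value. They ran from −0.16 (Ctsz) to 0.17 (Ctss), with 4 genes above 0, 6 below 0 and a median of −0.01, beside a median of 0.00 over all compared genes (0.0026). Past 0.5 upward were 0 of the 10 genes, where the share of all compared genes was 1.27%, and past −0.5 downward were also 0 of 10, where that share was 2.18%. With so few genes expected at such shares, a count of 0 is no result about these genes. All 10 lay under 0.25 in size, a limit chosen after the values were seen, as did 82.7% of all compared genes and 90.2% of the 4054 genes whose mean lay within the range of the 10 (17.7 to 563 FPKM). The median size of the log2 ratio was 0.054 for the 10 genes, 0.091 for the 4054 genes and 0.11 for all compared genes.

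**Figure D3:**
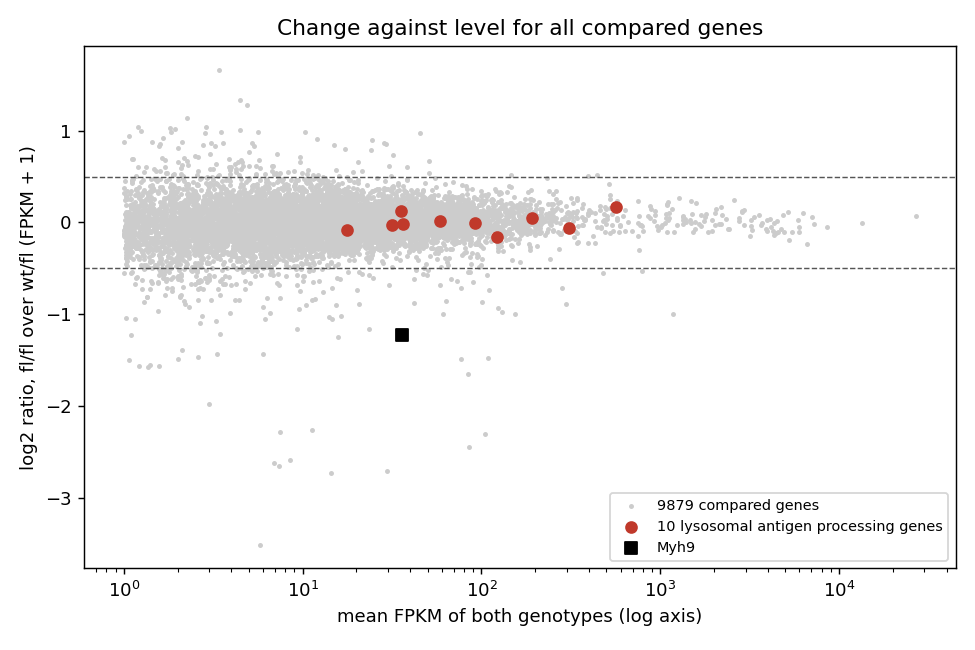
Log2 ratio of fl/fl over wt/fl (y axis, 1 FPKM added to each value) against mean FPKM on a log axis (x axis) for the 9879 compared genes (grey), the 10 lysosomal antigen processing genes (red circles) and Myh9 (black square). Dashed lines mark a log2 ratio of 0.5 in either direction. The red circles lie between −0.16 and 0.17, whereas Myh9 lies at −1.22.

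Cathepsin S is the cysteine protease known for the last steps of invariant chain removal in B cells. Ctss (chromosome 3 from 95330707 to 95360325, build mm9, as are all positions of the table) was at 530 FPKM in wt/fl cells and 597 FPKM in fl/fl cells. The fl/fl value was 66.6 FPKM or 12.6% higher, a log2 ratio of 0.17, and 68.9% of the compared genes had a smaller change in either direction. Both of its entries were higher in fl/fl, the main one at 505 and 564 FPKM and the minor one at 24.6 and 32.4 FPKM. The minor entry made up 4.64% of Ctss in wt/fl and 5.43% in fl/fl. Of the FPKM summed over the 7 proteases (992 in wt/fl cells and 1050 in fl/fl cells), Ctss alone held 53.4% in wt/fl and 56.8% in fl/fl. The sum over all 10 genes was 1431 FPKM in wt/fl cells and 1478 FPKM in fl/fl cells, 3.3% higher, and without Ctss it was 901 and 882 FPKM, a change of −2.16%. The higher total in fl/fl was thus carried by Ctss.

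Cathepsin H and cathepsin Z are mainly exopeptidases, which trim peptides from their ends. Ctsh (chromosome 9 from 89949104 to 89970933) was at 189 FPKM in wt/fl cells and 195 FPKM in fl/fl cells, with a log2 ratio of 0.04. Ctsz (chromosome 2 from 174241304 to 174264493) was at 128 and 115 FPKM, a log2 ratio of −0.16, and was the gene of the 10 with the lowest ratio. Its share of the protease sum was 12.9% in wt/fl and 10.9% in fl/fl. The position of Ctsz overlaps that of Nelfcd, which was at 22.8 and 21.7 FPKM. Cathepsin B, which can act both as an endopeptidase and as an exopeptidase, had the lowest level, with Ctsb (chromosome 14 from 63741298 to 63796630) at 18.3 and 17.2 FPKM and a log2 ratio of −0.08. Its position overlaps that of Fdft1 (7.51 and 8.21 FPKM). Ctss exceeded Ctsb by 29.0 times in wt/fl and 34.7 times in fl/fl. Summed over the papain-like cathepsins Ctsb, Ctsh, Ctss and Ctsz, the levels were 866 FPKM in wt/fl cells and 924 FPKM in fl/fl cells. By their single levels the order was Ctss, Ctsh, Ctsz and Ctsb in both genotypes.

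The remaining proteases belong to other catalytic classes. Cathepsin D is an aspartic endopeptidase, and Ctsd (chromosome 7 from 149561820 to 149573775) was at 31.9 FPKM in wt/fl cells and 31.3 FPKM in fl/fl cells, with a log2 ratio of −0.03. Legumain, or asparagine endopeptidase, cuts after asparagine and also matures several cathepsins, and Lgmn (chromosome 12 from 103632307 to 103677907) was at 36.4 and 35.9 FPKM, a log2 ratio of −0.02. Cathepsin A is a serine carboxypeptidase that also protects β-galactosidase and neuraminidase 1 in a complex. Ctsa (chromosome 2 from 164656229 to 164683208) summed to 58.6 and 59.1 FPKM, a log2 ratio of 0.01. Nearly all of it came from 1 entry at 57.1 and 58.0 FPKM, and the minor entry was at 1.47 and 1.12 FPKM. The position of Ctsa overlaps those of Pltp (8.16 and 9.87 FPKM) and Neurl2 (2.61 and 4.14 FPKM). These 3 proteases thus differed by less than 2% between the pooled values, at −1.83% for Ctsd, −1.3% for Lgmn and 0.81% for Ctsa.

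Ifi30 encodes GILT, the reductase that opens disulfide bonds of antigen at acid pH. Ifi30 (chromosome 8 from 73286671 to 73290562) was the second most abundant of the 10 genes, at 313 FPKM in wt/fl cells and 299.9 FPKM in fl/fl cells, and its log2 ratio was −0.06. Ctss exceeded it by 1.69 times in wt/fl and by 1.99 times in fl/fl.

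Lamp1 (chromosome 8 from 13159134 to 13175338), the gene with 4 E-boxes shown above, was at 91.6 FPKM in wt/fl cells and 91.3 FPKM in fl/fl cells. Its log2 ratio of −0.0043 was the nearest to 0 of the 10 genes, and 1.91% of compared genes had a smaller one in size. Lamp2 (chromosome X from 35758240 to 35809632) summed to 33.8 and 36.9 FPKM, a log2 ratio of 0.12. LAMP-2 is made in isoforms with different tails, of which LAMP-2A is the receptor of chaperone-mediated autophagy, and the GENCODE M21 annotation lists 3 coding sequences for Lamp2 that end in 3 different last coding exons. The table has 2 Lamp2 entries and does not pair them with isoform names. The larger entry was at 23.2 FPKM in wt/fl cells and 27.4 in fl/fl cells (log2 ratio 0.23), and the smaller was at 10.5 and 9.47 FPKM (log2 ratio −0.14). The entries of Lamp2 thus lay on opposite sides of 0, and the smaller one made up 31.2% of the gene in wt/fl and 25.7% in fl/fl. How fragments were divided between entries of a gene is an estimate, and its error is unknown here.

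**Figure D4:**
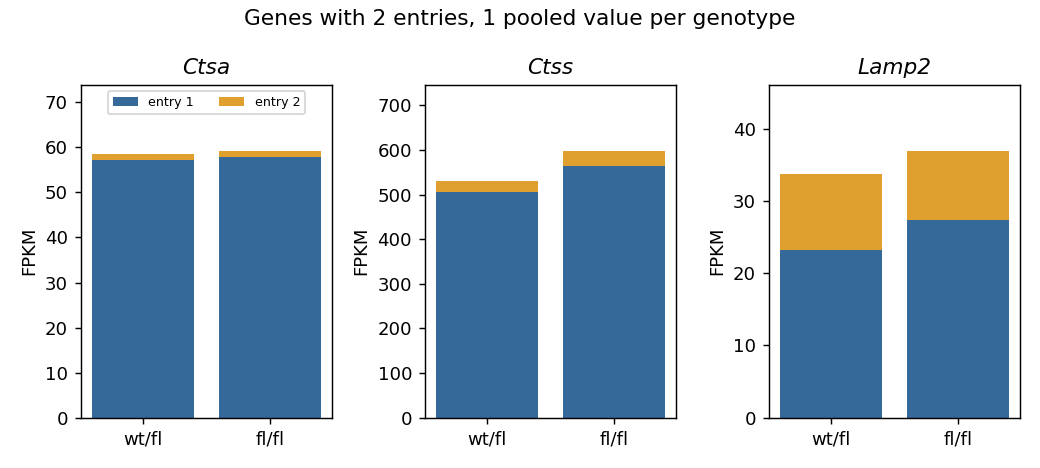
FPKM (y axis, linear from 0) of the 2 entries of Ctsa, Ctss and Lamp2, stacked, in wt/fl and fl/fl. Each bar is 1 pooled value per genotype with no error bar. Both Ctss entries are taller in fl/fl, while the smaller Lamp2 entry goes from 10.5 to 9.47 FPKM as the larger goes from 23.2 to 27.4 FPKM.

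The wider lysosome was compared through 8 lists with 110 genes of the table, of which 95 were compared. Of these 95, 0 were past 0.5 upward and 1 was past −0.5 downward, 84 lay under 0.25 in size, and the median was −0.02. The shares over all compared genes were 1.27%, 2.18% and 82.7%, so the counts past 0.5 lay near the background. The 1 gene was Cd63, a tetraspanin of late endosomes, at 3.81 FPKM in wt/fl cells and 2.40 in fl/fl cells (log2 ratio −0.50), and it was named after its value had been seen.

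Ctsc and Ctso were the most abundant of the other cathepsins. Ctsc, which activates granule serine proteases, was at 80.2 FPKM in wt/fl cells and 85.2 in fl/fl cells, and Ctso was at 56.8 and 65.6 FPKM (log2 ratio 0.20). Ctse, an aspartic protease of endosomes, was at 9.28 and 10.8 FPKM. Ctsl, whose product takes the place of cathepsin S in thymic epithelium, was at 3.12 and 2.51 FPKM, so Ctss exceeded it by 170 times in wt/fl and 237 times in fl/fl. Over the 5 compared genes the median log2 ratio was 0.20, with 4 above 0, and 0 of 5 were past 0.5. Ctsg, a protease of neutrophil granules, was listed at 0 in both genotypes. Without the filter on FPKM the median of the other cathepsins was 0.064. The 4 compared genes among other lysosomal peptidases had a median of −0.08, which turned to 0.026 without that filter. Prcp was at 35.9 and 36.7 FPKM, Scpep1 at 36.7 and 31.7, Tpp1 at 30.4 and 33.6 and Dpp7 at 11.3 and 9.72.

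Cystatins inhibit the papain-like cathepsins. Cst3, the secreted cystatin C, was at 188 FPKM in wt/fl cells and 172 FPKM in fl/fl cells, and Cstb, the cytosolic cystatin B, at 86.0 and 83.4 FPKM. Both log2 ratios were below 0, at −0.13 and −0.04. Ctss exceeded Cst3 by 2.82 times in wt/fl and 3.47 times in fl/fl.

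Cathepsins need an acid lumen, which the vacuolar ATPase provides. Of its 17 compared subunits, 9 were above 0 and 8 below, with 0 past 0.5 and a median of 0.00 (0.00052). Atp6v0e was at 106 FPKM in both genotypes, Atp6v1f at 104 and 103 FPKM, and Atp6ap1 at 101 and 105 FPKM. The lowest ratio was that of Atp6v1g1 (107 and 82.3 FPKM, log2 ratio −0.38) and the highest that of Atp6v0d1 (35.3 and 45.4 FPKM, 0.35), subunits of the cytosolic and the membrane sector.

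Among 19 compared lysosomal membrane proteins other than LAMP-1 and LAMP-2, 14 were below 0, with a median of −0.08. Over all compared genes, 4993 were above 0 and 4886 below, the background for the counts by sign given for each list. Laptm5, a lysosomal protein of lymphocytes, was at 356 FPKM in wt/fl cells and 328 FPKM in fl/fl cells (log2 ratio −0.12), Tmem55b at 40.0 and 39.1 FPKM and Laptm4a at 36.3 and 34.7 FPKM. Among those averaging 5 FPKM or more the extremes were Mcoln2, a lysosomal cation channel (26.1 and 31.8 FPKM, 0.28), and Cd68 (7.41 and 6.10 FPKM, −0.24). Of 34 compared hydrolases of lipids and glycans and their cofactors, 18 were above 0 and 16 below, with a median of 0.01. Psap, the precursor of the saposins, was at 93.2 and 85.9 FPKM. The lowest ratio of this list was that of Acp5, an acid phosphatase (101 and 73.9 FPKM, −0.45), and the highest above 5 FPKM was that of Aga (10.5 and 12.3 FPKM, 0.21).

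Lysosomal hydrolases reach their compartment through mannose 6-phosphate tags. M6pr, the cation-dependent receptor for the tag, was at 76.3 FPKM in wt/fl cells and 82.4 FPKM in fl/fl cells, and Gnptab, a subunit of the enzyme that makes the tag, at 23.6 and 29.3 FPKM (log2 ratio 0.30). Ap1m1 and Gga2, adaptors of vesicles that carry the receptors, were at 64.4 and 66.6 FPKM and at 59.3 and 65.2 FPKM. Nagpa, which uncovers the tag, had the lowest ratio (10.9 and 9.75 FPKM, −0.15). The 11 compared genes of this list had a median of 0.10, with 7 above 0. Of the factors that control lysosomal genes, Tfeb was at 27.7 and 24.6 FPKM (−0.17), Tfe3 at 10.1 and 9.73 FPKM (−0.05) and Zkscan3, known as a repressor of autophagy and lysosomal genes, at 19.3 and 16.2 FPKM (−0.24). All 3 lay below 0. Of the 5 genes with E-boxes shown above, Ctsa was at 0.01, Lamp1 at −0.0043, Lgmn at −0.02, Ctsd at −0.03 and Ifi30 at −0.06 in log2 ratio.

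The class II machinery that receives the peptides was far more abundant than the proteases. Cd74, the invariant chain cut by cathepsin S, was at 7307 FPKM in wt/fl cells and 7237 FPKM in fl/fl cells, 13.8 and 12.1 times the level of Ctss. H2-Aa was at 6083 and 6545 FPKM, H2-Ab1 at 2360 and 2796 FPKM (log2 ratio 0.24) and H2-DMb1, with the lowest ratio of the list, at 163 and 144 FPKM (−0.18). The 10 class II loading genes had a median log2 ratio of 0.10, with 8 above 0 and 0 past 0.5.

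**Figure D5:**
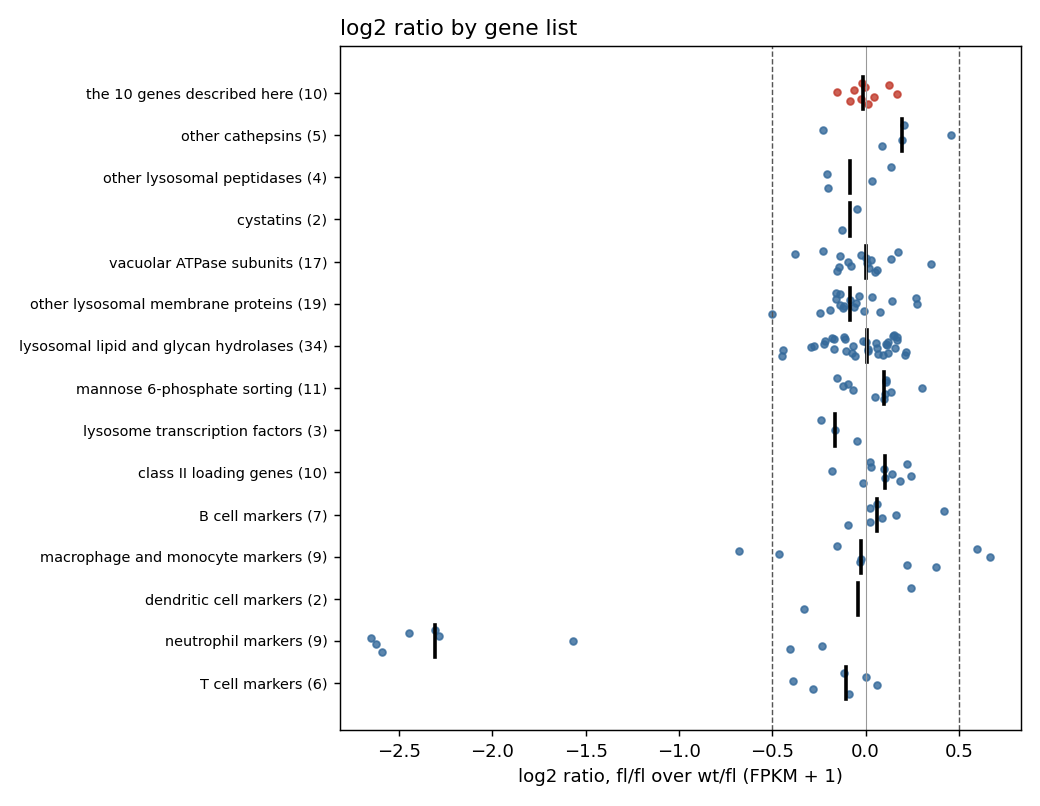
Log2 ratio of fl/fl over wt/fl (x axis, 1 FPKM added to each value) of each compared gene, by gene list (y axis, number of compared genes in brackets). Each point is a gene, black bars are list medians and dashed lines mark 0.5 in size. The lysosome lists have medians between −0.17 and 0.20, whereas the neutrophil marker list has a median of −2.31.

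The 7 listed B cell markers were all compared and summed to 4739 FPKM in wt/fl cells and 5009 FPKM in fl/fl cells, with Fcer2a, which encodes CD23, at 439 and 588 FPKM. Macrophages and neutrophils are rich in lysosomal enzymes, so their markers were set beside the results. Of 19 macrophage and monocyte markers in the table, 9 were compared, and the list summed to 93.3 and 67.5 FPKM, most of it Lyz2 (72.6 and 44.9 FPKM), which neutrophils also express. Csf1r was at 1.42 and 1.39 FPKM and Adgre1 (listed as Emr1) at 1.34 and 0.652 FPKM, while Hmox1 was at 1.51 and 2.98 FPKM, Spic at 2.89 and 4.89, C1qb at 1.61 and 2.39 and C1qc at 1.60 and 2.04. Itgam was at 2.22 and 1.33 FPKM, Vcam1 at 2.09 and 1.78 and Clec4a3 at 1.34 and 1.29. Of the 9 compared markers, 4 had a log2 ratio above 0 and 5 below. Past 0.5 upward were 2 (Hmox1 and Spic), and past −0.5 downward was 1 (Lyz2). No marker of the list was at 0 in both genotypes. The 13 neutrophil markers summed to 387 FPKM in wt/fl cells and 73.3 FPKM in fl/fl cells, with 7 of 9 compared genes past −0.5 and 0 past 0.5. Most of the sum was S100a8 (145 and 25.8 FPKM) and S100a9 (175 and 34.5 FPKM). The compared genes not past −0.5 were Cxcr2 (5.99 and 4.96 FPKM, log2 ratio −0.23) and Csf3r (2.32 and 1.51 FPKM, −0.41). Dendritic cell markers summed to 31.5 and 25.7 FPKM, most of it Bst2 (27.3 and 21.5 FPKM). The only other compared marker of that list, Ccr9, was at 1.57 and 2.05 FPKM. T cell markers summed to 212 and 199 FPKM, of which Cd2, a gene B cells also express, made up 188 and 176 FPKM. In bulk RNA, fewer cells of a type and less RNA per cell cannot be told apart. The part of other cells in the levels of the 10 genes was not tested.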

How the data were processed

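Total RNA of sorted follicular B cells was amplified (Ovation RNA-Seq system V2) and sequenced by the authors. The submitters' processing notes name Bowtie, TopHat and Cufflinks, without versions, and mm10 (GRCm38). The positions are nevertheless on an older build, mm9, since 194 entries on chromosome 7 lie beyond the last GRCm38 gene there. The deposited FPKM values are the authors' estimates, 1 per entry and genotype, pooled over 3 samples. The deposited columns of fold changes, test statistics, p-values and q-values hold the authors' own comparison and were not used. Tests between genotypes, leave-one-out fits and intervals were not possible with pooled values.

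FPKM was summed per gene name, and genes averaging 1 FPKM or more over both genotypes were compared as log2((fl/fl + 1)/(wt/fl + 1)) with Python 3.11.15 and pandas 2.3.3. The members and lists (9 pathway lists and 5 marker lists) were chosen with earlier results of these data known. Named were the 10 genes, Myh9, and in each list up to 3 of the most abundant genes and the extremes of at least 5 FPKM. Marker lists are given as sums, and 1 gene that the rule named is not reported here. Other genes were named after their values were seen (Cd63, Ctsl, Ctsg, Csf1r, Adgre1, Lyz2, Hmox1, Spic, C1qb, C1qc, Itgam, Vcam1, Clec4a3, S100a8, S100a9, Cxcr2, Csf3r, Bst2, Ccr9, Fcer2a, Cd2 and the genes that overlap a member). Pgcp and Cpq are names of 1 gene, as are Adgre1 and Emr1, and each was counted once. E-box matches used RefSeq promoter windows. Computations were tested on simulated data.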

Additional observations from a re-analysis of the deposited data

How the results depend on the processing

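No paired analysis was possible because the table holds 1 pooled value per genotype, and for the same reason no replicate could be left out. Over 9 alternatives, 0 of the 10 genes were past the log2 ratio limit, also at a limit of 0.3. With ratios from −0.16 to 0.17, the limits of 0.3 and 1 could not change that count. Neither could the filters on FPKM, since all 10 genes pass them. Single ratios were recomputed only under the remaining settings, and 0 of these 50 single values changed sign. For many of the 50 this was fixed in advance. Another amount of added FPKM cannot change a sign, and genes with 1 entry keep their value when the highest entry is used alone. The size of any of the 50 values stayed at or below 0.23, and a shift of at least 0.1 was called a move. The median of the 10 genes stayed between −0.02 and −0.01. With the entry of the highest mean alone, Lamp2 was at 0.23 in place of 0.12. Without a filter on FPKM, the medians were 0.064 for other cathepsins, 0.026 for other lysosomal peptidases (−0.08 with the filter, so its direction turned) and −0.048 for lysosome transcription factors, because genes near 0 FPKM then enter. Genes past 0.5 upward and downward over the whole table, 125 and 215, became 538 and 637 at a limit of 0.3, 9 and 40 at a limit of 1, 238 and 346 with 0.1 FPKM added in place of 1, and 49 and 98 at a mean of at least 5 FPKM. These counts and the limit of 0.25 were added after the data were seen. The missing spread between mice and the unknown depth limit every value.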
